A study of Mus musculus with 9 samples.

Results

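Genes of the extracellular matrix were followed in mouse kidney at 2 ages: collagens, laminins and the proteins that link them, crosslinking enzymes, matrix proteases and protease inhibitors. Members were chosen by gene symbol, with a rule set when earlier results of these data were known. The rule took every numbered symbol of the Col, Lama, Lamb, Lamc, Timp, Mmp, Lox, Nid, Fbn, Fbln and Adamts families, together with Fn1, Sparc, Dcn, Lum, Bgn, Hspg2 and Agrn. It found 70 of the 13081 genes in the deposited table, while 119 symbols of the GENCODE vM21 annotation match it. By role, the 70 genes were 7 fibrillar collagens, 21 basement membrane genes, 13 other collagens, 5 elastic fibre genes, 4 adhesive glycoproteins and small proteoglycans, 5 crosslinking enzymes, 13 proteases and 2 protease inhibitors. Lum, Timp1, Timp4 and Col4a6 are among the matching symbols that were not analysed here.

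Kidney RNA of wild-type mice was compared between 3 months (young, n = 4 libraries) and 16 months (old, n = 5 libraries). The study used these C57BL/6 mice to ask which changes of its mutant animals also occur in normal ageing. Neither group carried a mutation or received a treatment, and the samples are whole tissue. The labels do not say beyond separate samples whether each library is 1 mouse, so p-values measure the spread between these libraries.

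Fibrillar collagens form the fibres of the interstitium between tubules, and their accumulation is the hallmark of kidney fibrosis. Basement membranes are thin sheets of type IV collagen and laminin, joined by nidogen and the heparan sulfate proteoglycans perlecan and agrin, that underlie every tubule and capillary and form the core of the glomerular filter. Matrix is renewed by secreted and membrane-bound proteases of the MMP and ADAMTS families, which the TIMP proteins inhibit.

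The libraries held 4486406 to 6355095 reads in the listed genes. Each value is a normalised count, that is, the reads of a gene divided by 1 size factor per library. Mitochondrial genes took 27.0% to 29.7% of the reads in the young libraries and 35.8% to 38.1% in the old ones. Kidney markers were present in every library, with the summed level of 7 proximal tubule markers at 33870 to 34883 normalised counts in young and 30717 to 39640 in old kidneys. Markers of the loop of Henle and distal tubule summed to 10623 to 11144 in young and 13399 to 17128 in old kidneys, without overlap. These 5 markers did not share a direction (3 higher and 2 lower, log2 fold changes -0.44 to 1.04), and Umod alone made up 44.4% of the sum. Collecting duct markers summed to 2354 to 2948 in young and to 1255 to 1716 in 4 of the 5 old libraries. The part of these segments in the matrix values was not tested. Old replicate 3 and young replicate 2 stood apart within their groups. Old replicate 3 had the highest summed level of fibroblast markers (692), of collecting duct markers (3209) and of the 1 urothelial marker measured, Upk3a (89.2). Its adipocyte markers summed to 1033 (56.0 to 370 in the remaining old libraries) and its lymphocyte markers to 302 (74.6 to 160). Only 2 of the 6 lymphocyte markers listed were measured, and Jchain made up 94.8% of their sum. Young replicate 2 had 1427 for adipocyte markers (271 to 465 in the remaining young libraries) and 41.8 for Upk3a (0 to 7.37). Library titles carried 2 prefixes, none of which held both ages, so whatever the prefix stands for and age cannot be told apart. In whole tissue, fewer cells of a type and less RNA per cell cannot be told apart either.

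Of the 70 matrix genes, 65 were tested, each with 10 or more normalised counts in 4 or more libraries. Called here means an adjusted p below 0.05 in the limma fit over all 12667 genes tested. By this rule 38 of the 65 genes were called, 21 higher and 17 lower in old kidneys. Of all genes tested, 59.7% were called, 29.2% higher and 30.5% lower, so the share of matrix genes called (58.5%) lay near the background. At least a 1.5-fold change as well was met by 18 of the matrix genes upward and 12 downward, beside 45.1% of all genes in either direction. Their median log2 fold change was 0.19, and that of all genes tested was -0.003. Values of young and old libraries did not overlap for 33 of the 65 genes (18 higher, 15 lower), beside 49.0% of all genes. With mitochondrial genes left out of the scaling, the median of all genes shifted by 0.14 and the split of the matrix calls moved from 21 higher and 17 lower to 26 and 12. Col23a1, which is among the 21 higher, and Lox, which was not called, passed the filter through the old libraries alone, since no young library reached 10 normalised counts.

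**Figure D1:**
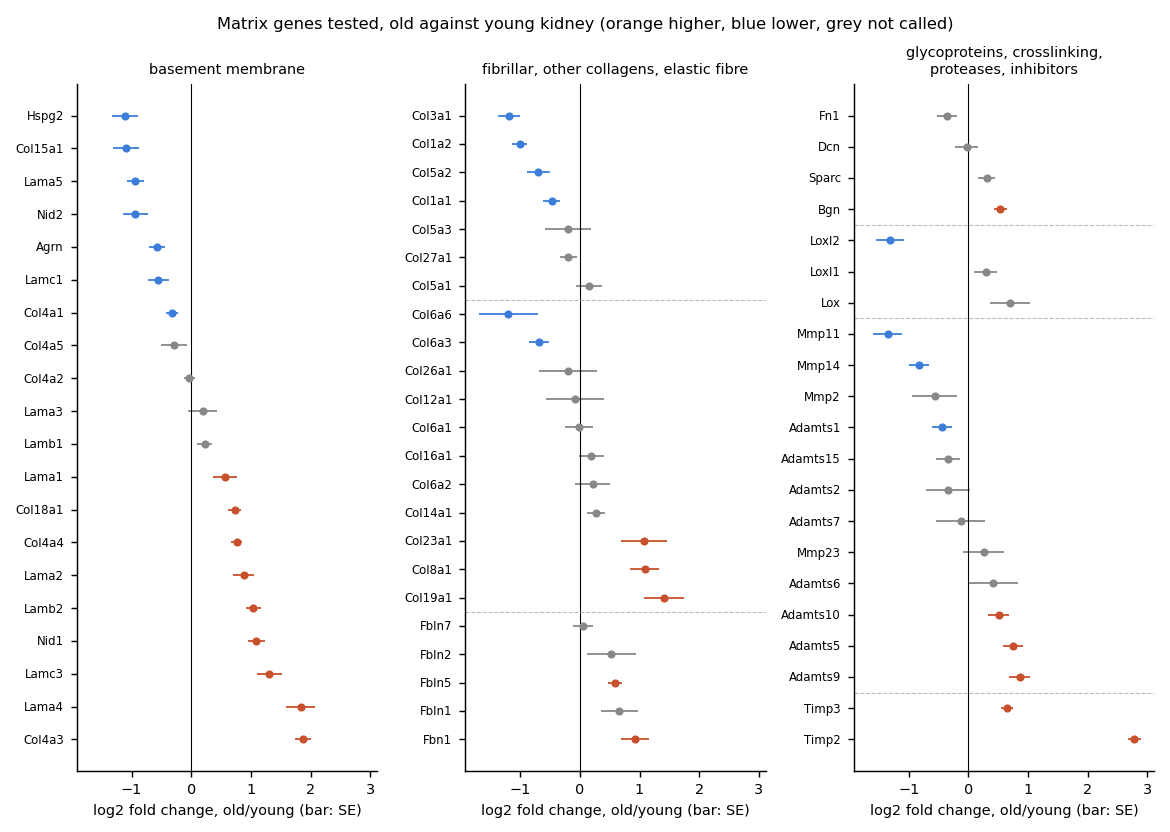
Log2 fold change of old over young kidney (x axis) for the matrix genes tested, 1 of which is not drawn, with bars of 1 standard error, grouped by role and sorted within each group. Called genes are orange (higher in old) or blue (lower), and grey genes were not called. The fibrillar collagens called were all lower, the basement membrane genes spread from -1.11 to 1.88, and Timp2 stood farthest from 0 at 2.78.

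The fibrillar collagens called were lower in old kidneys. Of the 7 tested, 4 were called and all 4 were lower (Col1a1, Col1a2, Col3a1 and Col5a2), while Col5a1, Col5a3 and Col27a1 were not called. The share called was 57.1%, near the 59.7% of all genes (30.5% lower). The median log2 fold change of the group was -0.47. Summed over the group, the level was 1616 to 2172 normalised counts in young and 937 to 1323 in old kidneys, without overlap.

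Col1a2 encodes 1 chain of type I collagen, the most abundant collagen of the body. It measured 735, 708, 798 and 901 normalised counts in the young libraries and 304, 431, 480, 350 and 401 in the old ones. Every old library lay below every young one. Its mean fell 2.0-fold, from 785 ± 85.6 (SD, n = 4) to 393 ± 68.5 (SD, n = 5), with a log2 fold change of -1.01 (SE 0.12, limma adjusted p = 1.26e-06). Col1a1, its partner chain, measured 262, 232, 215 and 368 in young and 194, 187, 228, 163 and 181 in old kidneys. Here the groups overlapped, since old replicate 3 (228) lay above young replicate 3 (215). The log2 fold change of Col1a1 was -0.47 (SE 0.15, limma adjusted p = 0.00943). Without young replicate 4, the highest library, it was -0.31 and no longer called (adjusted p = 0.0594), and with mitochondrial genes left out the adjusted p was 0.0717. Over all alternatives the adjusted p of Col1a1 ran from 0.000287 to 0.0717.

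Col3a1, the chain of type III collagen that is laid down with type I, showed 189, 196, 260 and 269 normalised counts in young kidneys and 71.9, 125.8, 139, 80.2 and 90.2 in old kidneys. The highest old library was below the lowest young one, and the mean fell 2.25-fold (log2 fold change -1.19, SE 0.18, limma adjusted p = 1.77e-05). Exons of Col3a1 overlap the annotated gene Gm47302 on the same strand, so reads of the pair may be divided between them. Col5a2, a chain of the type V collagen that nucleates type I fibrils, gave 77.8, 77.7, 85.3 and 78.8 in young and 58.9, 55.8, 39.6, 34.5 and 62.6 in old kidneys, again without overlap (log2 fold change -0.69, SE 0.19, limma adjusted p = 0.00401). The other type V chains were not called: Col5a1 was at 43.1 ± 10.8 and 48.3 ± 13.0, and Col5a3 at 18.7 ± 4.49 and 17.8 ± 7.78 (young and old, SD). Col27a1, a fibrillar collagen best known from cartilage, was at 401 ± 64.1 in young and 352 ± 68.9 in old kidneys and was not called. With a trend of fold change with transcript length removed it was called lower (-0.62, limma adjusted p = 0.00140, range over all alternatives 0.00140 to 0.770).

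Fibroblast markers did not move as 1 block. Of the list of 7, 6 were measured and 5 were tested, and their summed level was 410 to 559 normalised counts in young and 233 to 692 in old kidneys. Pdgfra, a receptor of interstitial fibroblasts, was higher in old kidneys (log2 fold change 0.84), while Pdgfrb, a receptor of pericytes and fibroblasts, was lower (-0.80). No fibroblast marker measured had a mean of 0 in either group. The part of fibroblast number in the collagen levels was not tested. Without old replicate 3 the 4 fibrillar calls remained.

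Col3a1 (chr1:45311538-45349706, + strand, GRCm38) and Col5a2 (chr1:45374321-45503282) lie 24.6 kb apart with their ends facing. The stretch before the annotated start of Col3a1 is shown because it held a TATA motif, here TATAAA on either strand, which 3 of 50 member promoters held (6.0%), against 13.6% of all 32851 promoters of 300 bases in the RefSeq table. It is given next to the stretch before the RefSeq start of Col1a2, which held none and held GGGCGG, the core letters of a GC box, at 2 places. GENCODE vM21 places Col1a2 at chr6:4504814-4541544, so by that annotation the Col1a2 window lies inside the gene. Capitals mark the motif letters. In windows of the same place and length, 12.4% of all promoters held TATAAA (Col3a1 window) and 13.3% held GGGCGG (Col1a2 window).
Col3a1, RefSeq GRCm38.p6, chr1:45311288-45311537, + strand: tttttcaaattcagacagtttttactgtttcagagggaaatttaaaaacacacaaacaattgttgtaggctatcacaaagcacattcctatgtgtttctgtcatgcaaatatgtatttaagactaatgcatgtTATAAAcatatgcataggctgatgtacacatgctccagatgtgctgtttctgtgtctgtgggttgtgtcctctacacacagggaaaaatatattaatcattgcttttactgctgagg
Col1a2, RefSeq GRCm38.p6, chr6:4505370-4505492, + strand: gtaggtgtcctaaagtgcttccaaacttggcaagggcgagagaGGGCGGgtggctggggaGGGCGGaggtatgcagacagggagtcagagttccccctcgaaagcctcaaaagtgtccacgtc

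**Figure D2:**
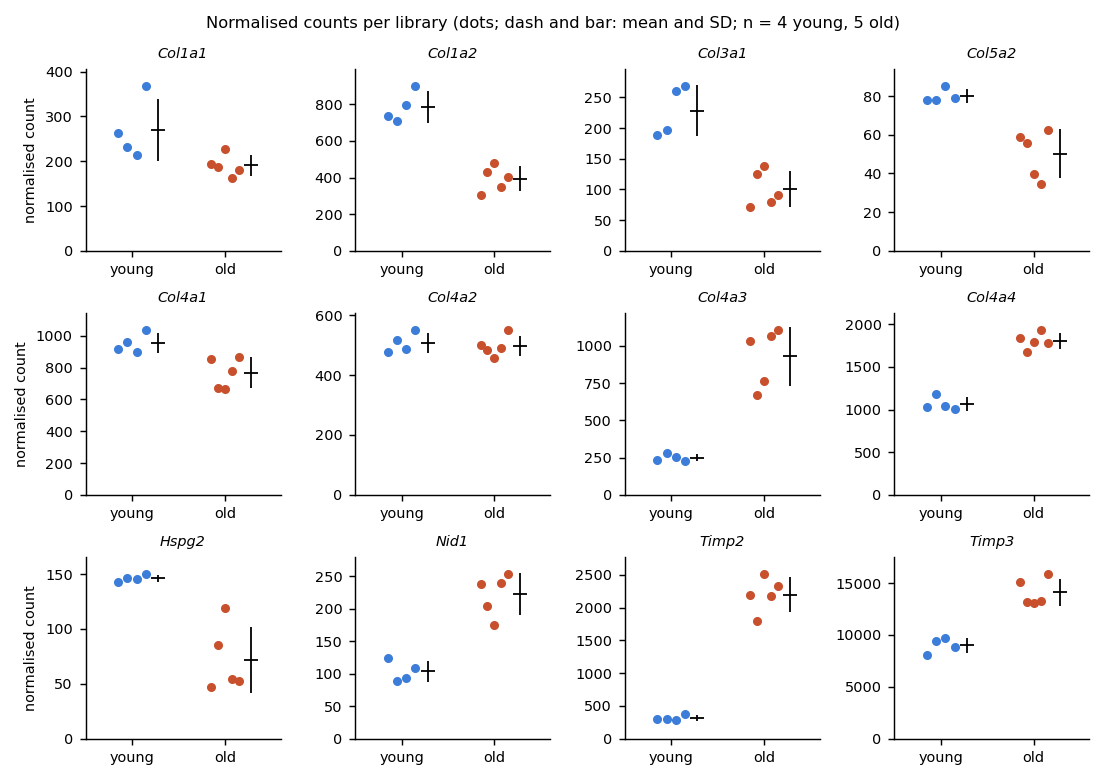
Normalised counts (y axis, linear from 0) of 12 matrix genes in the 4 young (blue) and 5 old (orange) libraries, 1 dot per library, with the mean and SD beside them. Col1a2, Col3a1 and Hspg2 lie lower in every old library, Col4a3, Col4a4, Nid1, Timp2 and Timp3 lie higher, and Col1a1 and Col4a2 overlap.

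Basement membrane genes were called in both directions. Of 21 tested, 17 were called, 10 higher and 7 lower in old kidneys, with a median log2 fold change of 0.22, beside 59.7% of all genes called (29.2% higher, 30.5% lower). Values did not overlap for 17 of the 21 (81.0%, beside 49.0% of all genes), the same genes that were called. With a trend of fold change with transcript length removed (the length trend), the group stood at 7 higher and 9 lower with a median of -0.058, so the balance of its directions depends on that setting. The 4 that were not called were Col4a2, Col4a5, Lama3 and Lamb1. The summed level of the group was 4508 to 4846 normalised counts in young and 5652 to 6528 in old kidneys (means 4707 and 6226). Col4a3 (means 248 and 929) and Col4a4 (1066 and 1804) carried most of that difference, so the sum does not describe the group as a whole.

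Type IV collagen chains differed from each other. Col4a1 and Col4a2 form the network found in nearly all basement membranes. Col4a1 measured 920, 960, 896 and 1038 normalised counts in young and 857, 673, 667, 777 and 869 in old kidneys. The groups did not overlap, although the gap was small (869 against 896), and the log2 fold change was -0.32 (SE 0.10, limma adjusted p = 0.0119). With mitochondrial genes left out of the scaling Col4a1 was at -0.18 and was not called (adjusted p = 0.127, range over all alternatives 2.28e-05 to 0.127). Col4a2 was at 508 ± 33.9 in young and 497 ± 34.3 in old kidneys and was not called. With the length trend removed Col4a2 was called lower (-0.37, limma adjusted p = 0.00263, range over all alternatives 0.00263 to 0.970).

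Col4a3, Col4a4 and Col4a5 form the network of the mature glomerular basement membrane, and mutations in them cause Alport syndrome. Col4a3 had 233, 280, 251 and 229 normalised counts in young kidneys and 1035, 672, 767, 1066 and 1108 in old kidneys. The lowest old library was far above the highest young one. Its mean rose 3.75-fold, from 248 ± 23.2 to 929 ± 197 (SD), with a log2 fold change of 1.88 (SE 0.14, limma adjusted p = 1.62e-09). Col4a4 had 1028, 1180, 1047 and 1008 in young and 1836, 1674, 1787, 1936 and 1785 in old kidneys (log2 fold change 0.76, SE 0.09, limma adjusted p = 5.76e-07). It too was higher in every old library, but it was at 0.18 and not called once the length trend was removed (adjusted p = 0.0757, range over all alternatives 8.27e-18 to 0.0757). Col4a5, on chromosome X, was at 71.6 ± 15.6 and 59.5 ± 18.5 in young and old kidneys and was not called. It was called lower with the length trend removed (-0.64, limma adjusted p = 0.0228, range over all alternatives 0.0228 to 0.607).

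Podocytes make the glomerular network, and all 7 podocyte markers of the list were in the table. Their summed level was 835 to 883 normalised counts in young and 852 to 1059 in old kidneys. Synpo, an actin-binding protein of podocyte foot processes, was higher in old kidneys (192 ± 12.3 and 383 ± 45.8, log2 fold change 0.99), as was Nphs1, the slit diaphragm protein nephrin (2.01). Podxl, the podocyte surface sialomucin, was lower (-1.45). Wt1, Ptpro and Magi2 were not called. The part of podocyte number in the Col4a3 and Col4a4 values was not tested.

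Col4a4 and Col4a3 (chr1:82586921-82722059, + strand, GRCm38) are transcribed away from each other, and both were higher in old kidneys. Only 71 bases lie between their annotated starts, and they are shown because the pair shares them. The interval held no TATAAA on either strand. It also held neither CCAAT nor the GC box letters.
Col4a4 to Col4a3 interval, RefSeq GRCm38.p6, chr1:82586850-82586920, - strand: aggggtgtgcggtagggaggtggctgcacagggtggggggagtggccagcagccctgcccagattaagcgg
Col4a1 and Col4a2 on chromosome 8 also face away from each other, with 22 annotated bases in common, and of that pair Col4a1 was lower and Col4a2 was not called.

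Laminin chains assemble as 1 alpha, 1 beta and 1 gamma chain. Apart from Lamb1 and Lamb2, those with values here were named after their values were seen. Among the alpha chains, Lama5, the chain of the glomerular and most adult tubular membranes, fell from 128, 169, 155 and 146 normalised counts to 84.9, 76.6, 87.2, 73.7 and 64.7, without overlap (log2 fold change -0.94, SE 0.14, limma adjusted p = 1.46e-05, and -1.57 with the length trend removed). Lama4, a chain of vessel walls, went the other way, from 19.7, 12.6, 12.7 and 14.5 to 58.9, 39.4, 77.1, 48.5 and 56.2 (1.83, SE 0.24, limma adjusted p = 2.34e-06). Lama1 and Lama2 were also higher, at 0.56 and 0.88 on the log2 scale, and Lama3 was not called. Lama1 was not called without young replicate 3, and with the length trend removed neither was called (Lama1 at 0.02, adjusted p = 0.948, range over all alternatives 0.00418 to 0.948, and Lama2 at 0.33, adjusted p = 0.131, range 2.05e-05 to 0.131). Of the beta chains, Lamb2, the partner of Lama5 in the glomerulus, rose from 124, 127, 109 and 125.8 to 257, 207, 302, 256 and 239, and its mean was 2.07-fold higher (log2 fold change 1.04, SE 0.12, limma adjusted p = 9.54e-07). Lamb1 was at 258 ± 24.9 and 302 ± 44.1 and was not called, although it was without old replicate 2 (adjusted p = 0.0412) and with mitochondrial genes left out (0.0150). Over all alternatives its adjusted p ran from 0.0150 to 0.700. Of the gamma chains, the widespread Lamc1 was lower (85.2 ± 6.45 and 58.7 ± 12.6, log2 fold change -0.55), while Lamc3 was higher at 1.31. Lamc1 was not called with mitochondrial genes left out (adjusted p = 0.0529, range over all alternatives 0.000141 to 0.0529).

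The linkers of the laminin and collagen sheets split as well. Nid1, 1 of the 2 nidogens, had 124, 88.4, 94.1 and 109 normalised counts in young and 238, 205, 174, 240 and 254 in old kidneys. Nid2, the other, had 52.4, 56.4, 70.6 and 75.1 in young and 34.2, 45.9, 23.3, 32.6 and 29.7 in old kidneys. Both sets of values were free of overlap but in opposite directions, with log2 fold changes of 1.09 (SE 0.14, limma adjusted p = 2.41e-06) and -0.94 (SE 0.21, limma adjusted p = 0.000866). Perlecan, the product of Hspg2, had 142, 147, 145 and 150 in young kidneys and 47.1, 85.3, 119, 54.1 and 53.0 in old ones. The young libraries were tightly grouped and the old ones spread widely below them (log2 fold change -1.11, SE 0.21, limma adjusted p = 0.000206, and -1.86 with the length trend removed). Agrn, named after its values were seen, was lower too, at 328 ± 32.6 and 223 ± 42.4 (-0.57).

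Col15a1 and Col18a1, collagens with heparan or chondroitin sulfate chains whose ends release the fragments restin and endostatin, differed in direction, and Col18a1 was named after its values were seen. Col15a1 fell from 83.5, 101, 84.3 and 124 to 49.5, 66.7, 54.8, 36.4 and 27.6 (log2 fold change -1.09, SE 0.22, limma adjusted p = 0.000357). Col18a1 rose from 284, 321, 344 and 379 to 521, 586, 613, 570 and 458 (0.73, SE 0.11, limma adjusted p = 1.84e-05). Neither pair of groups overlapped. Endothelial markers, all 8 of which were in the table, summed to 1468 to 1576 normalised counts in young and 1861 to 2284 in old kidneys, and 5 of the 8 were called (62.5%, near the 59.7% of all genes), Pecam1, Kdr, Flt1, Tek and Egfl7, each higher. None of their means was 0. The part of endothelial cells in the laminin, perlecan and collagen values was not tested.

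The stretches before the starts of Hspg2 (lower) and Nid1 (higher) are shown because these linkers moved in opposite directions and both windows held motif letters. GGGCGG was held by 36 of the 50 RefSeq promoters of 44 member genes (72.0%), against 35.7% of all promoters, and CCAAT by 13 of 50 (26.0%), against 37.4%. The Hspg2 window held GGGCGG at 5 places, a motif found in 27.9% of all promoters over the same window. The Nid1 window held GGGCGG once and CCAAT once, printed as its reverse complement ATTGG, beside 24.4% and 28.2% of all promoters. Capitals mark the motifs.
Hspg2, RefSeq GRCm38.p6, chr4:137468553-137468768, + strand: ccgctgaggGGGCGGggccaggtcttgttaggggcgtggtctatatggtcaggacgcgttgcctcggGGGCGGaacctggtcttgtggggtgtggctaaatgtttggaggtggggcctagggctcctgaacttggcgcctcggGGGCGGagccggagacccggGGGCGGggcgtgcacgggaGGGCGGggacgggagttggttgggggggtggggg
Nid1, RefSeq GRCm38.p6, chr13:13437352-13437550, + strand: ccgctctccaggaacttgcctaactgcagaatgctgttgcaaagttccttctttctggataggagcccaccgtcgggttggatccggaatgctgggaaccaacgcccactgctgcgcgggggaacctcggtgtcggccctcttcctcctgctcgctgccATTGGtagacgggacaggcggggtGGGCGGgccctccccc

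Ratios of chains that join or replace each other were taken within each library, which leaves out the scaling of the library. Of 8 ratios, 7 did not overlap between young and old kidneys, each with the smallest two-sided p that an exact permutation test over the libraries gives here (0.0159, Benjamini-Hochberg adjusted over the 8 ratios 0.0181). Of all single genes 49.0% did not overlap, and the share for ratios of other gene pairs was not computed, so the count of ratios is not read as particular to these pairs. Counts per gene come from the transcript end, so a ratio is 1 of reads and was not divided by length.

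The log2 ratio of Col4a3 to Col4a1, the glomerular against the general network, was between -2.18 and -1.77 in young and between -0.002 and 0.46 in old kidneys, a difference of 2.20. For Nid1 to Nid2 the means were 0.70 and 2.73, a difference of 2.02. Col4a3 to Col4a4 moved from a mean of -2.10 to -0.98, so the partners of 1 network rose unequally. Col1a1 to Col1a2, which assemble in a fixed proportion in type I collagen, went from -1.57 to -1.03, since Col1a2 fell more. Col4a1 to Col4a2 fell by 0.28 and Lamb1 to Lamb2 fell by 0.82. The ratio of Col6a1 to Col6a2 was 0.37 in young and 0.14 in old kidneys, with overlapping values (exact permutation p = 0.286, adjusted 0.286).

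**Figure D3:**
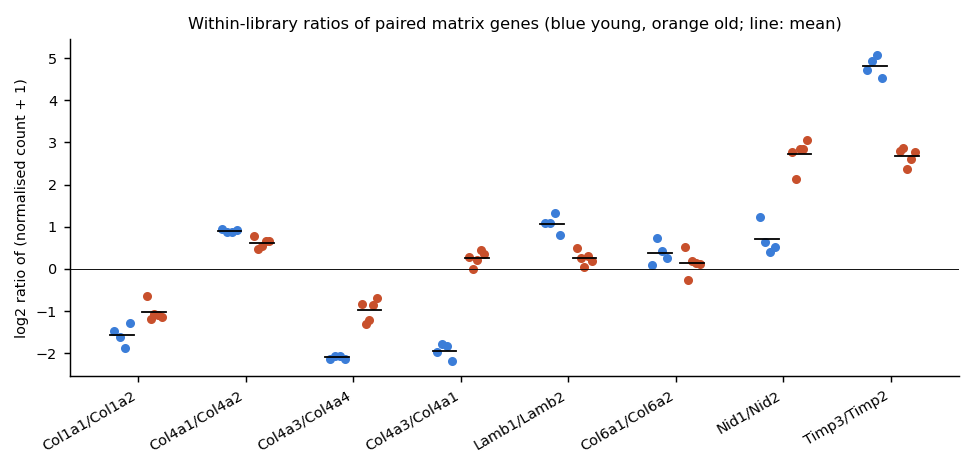
Log2 ratio within a library of the normalised counts (plus 1) of paired matrix genes (y axis), 1 dot per library, young in blue and old in orange, with a line at each mean. Young and old dots are apart for every pair but Col6a1/Col6a2, and the shift is 2.20 for Col4a3/Col4a1 and 2.02 for Nid1/Nid2.

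Of 13 other collagens measured, 11 were tested and 5 called (45.5%, beside 59.7% of all genes), 3 higher and 2 lower, with a median of 0.19. Among the chains of type VI collagen, which forms beaded filaments around cells, Col6a3 fell from 95.8, 99.1, 77.5 and 87.8 to 61.3, 61.3, 51.7, 43.8 and 61.5, without overlap (log2 fold change -0.68, SE 0.16, limma adjusted p = 0.00138). Its partners Col6a1 (49.4 ± 21.0 and 46.7 ± 8.79) and Col6a2 (39.5 ± 20.8 and 42.9 ± 11.3) were not called. Genes named here after their values were seen were low: Col8a1, a network collagen of vessel walls, was at 23.4 ± 8.20 and 49.9 ± 11.8 (log2 fold change 1.09). Col19a1 was at 15.3 ± 4.72 and 47.6 ± 34.2 (1.41), and old replicate 5 alone reached 108 while the rest of its group lay at 25.9 to 38.5. Col23a1 (1.08), counted among the higher calls, entered the test through the old libraries alone, so its call is no evidence of a rise, and it was lost without old replicate 2 or young replicate 3. That of Col6a6 (-1.20) was lost without old replicate 2, 3 or 4 or any 1 of the young libraries, and also with edgeR, DESeq2, a pseudocount of 0.1 or mitochondrial genes left out. Col14a1, which binds fibril surfaces, was called only without old replicate 3 among the fits that left out a library, and also with mitochondrial genes left out. Col22a1 did not reach the filter, at 0 to 2.94 in young and 7.10 to 20.2 in old kidneys.

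Of the 5 elastic fibre genes tested 2 were called (40.0%, beside 59.7% of all genes), both higher in old kidneys, and the group median was 0.59. Fbln5, which binds elastin and helps fibres assemble, rose from 363, 304, 286 and 315 to 569, 511, 383, 518 and 423, without overlap (log2 fold change 0.59, SE 0.12, limma adjusted p = 0.000363). Fbn1, the microfibril protein fibrillin mutated in Marfan syndrome and named after its values were seen, was at 26.2 ± 1.98 and 52.8 ± 15.4 (0.93), and old replicate 2 (28.4) lay within the young range. Fbn1 was not called with the length trend removed (adjusted p = 0.380, range over all alternatives 9.11e-05 to 0.380). Fbln1, Fbln2 and Fbln7 were not called, although Fbln1 was without old replicate 2 or young replicate 4 and with mitochondrial genes left out.

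Of the adhesive glycoproteins and small proteoglycans, 1 of 4 was called (25.0%, beside 59.7% of all genes). Biglycan (Bgn), a small leucine-rich proteoglycan that binds collagen, rose from 543, 512, 503 and 581 to 695, 654, 737, 903 and 907 (log2 fold change 0.53, SE 0.11, limma adjusted p = 0.000400). Every old library was above every young one. Decorin (Dcn), its close relative, was at 243 ± 23.5 and 250 ± 100 and was not called, and old replicate 3 had 419 where the remaining old libraries had 156 to 243. Fibronectin (Fn1) was at 54.9 to 69.7 in young and 42.7 to 52.2 in old kidneys. Its values did not overlap, but it was not called (log2 fold change -0.36, limma adjusted p = 0.0733, range over all alternatives 0.000655 to 0.273). Sparc, a collagen-binding glycoprotein, was at 778 ± 95.7 and 983 ± 236 and was not called (0.31, limma adjusted p = 0.0682). It was called without old replicate 2 (0.00468) or young replicate 4 (0.0378), with edgeR (0.0483), with mitochondrial genes left out (0.00958) and with the length trend removed (0.00756). Its adjusted p ran from 0.00468 to 0.193 over all alternatives, the highest at 0.20 on the log2 scale without old replicate 5.

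Crosslinking enzymes oxidise lysines so that collagen and elastin fibres join. Of 5 measured, 3 were tested and 1 was called (33.3%, beside 59.7% of all genes). Loxl2, named after its values were seen, fell from 79.4, 61.2, 47.1 and 86.9 to 17.7, 27.3, 36.5, 24.3 and 28.6, without overlap (log2 fold change -1.32, SE 0.23, limma adjusted p = 8.99e-05). Of the 50-base words in the last 500 bases of its longest transcript, 21.7% also occur somewhere in transcripts of other genes, so part of its reads may have been dropped or shared. Lox was at 7.63 ± 1.65 and 13.1 ± 3.22 and Loxl1 at 91.1 ± 29.9 and 108 ± 17.3, and neither was called. Lox was called without old replicate 2 and with mitochondrial genes left out, and Loxl1 without young replicate 4. Loxl3 and Loxl4 did not pass the filter.

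Of 13 proteases measured, 12 were tested and 6 called (50%), 3 higher and 3 lower, with a median of -0.23. Of all genes 59.7% were called, 29.2% higher and 30.5% lower. The summed level was 605 to 698 normalised counts in young and 649 to 784 in old kidneys. Mmp14, a membrane protease that cleaves collagens I to III and activates Mmp2, fell from 95.0, 139, 104 and 116 to 76.6, 55.8, 63.9, 47.6 and 74.3 (log2 fold change -0.83, SE 0.17, limma adjusted p = 0.000401). Mmp11, also named after its values were seen, went from 44.4 ± 3.10 to 17.3 ± 4.81 (-1.35). Both were free of overlap, and Mmp2, a gelatinase that degrades type IV collagen, was not called at 18.6 ± 6.58 and 13.0 ± 6.16. Mmp14 shares 6.21% of its end sequence with other genes.

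The ADAMTS proteases that cut the proteoglycans aggrecan and versican did not share a direction. Adamts5 rose from 183, 107, 144 and 140 to 187, 220, 193, 295 and 321 (log2 fold change 0.75, SE 0.17, limma adjusted p = 0.00113), with the lowest old library (187) just above the highest young one (183). Adamts9 rose from 42.6, 42.8, 35.3 and 45.3 to 56.6, 78.8, 80.1, 74.6 and 94.4 (0.86, SE 0.18, limma adjusted p = 0.000383). Adamts1 was at 125 ± 20.3 and 91.8 ± 17.9 (-0.45, SE 0.17, limma adjusted p = 0.0285) with overlapping values. The Adamts1 call was lost in 5 of the fits that left out 1 library (old replicate 1 or 4, young replicate 2, 3 or 4), and its adjusted p ran from 0.00448 to 0.133 over all alternatives. The calls of Adamts5 and Adamts9 were lost when the length trend was removed (adjusted p = 0.523 and 0.0690, ranges over all alternatives 0.000164 to 0.523 and 3.40e-05 to 0.0690). Adamts1 and Adamts5 are neighbours on chromosome 16, 53.1 kb apart. Adamts10, at 46.0 ± 8.48 and 65.5 ± 8.53 (0.51), was not called without young replicate 2 or 3, and Adamts15, not called at 62.5 ± 9.81 and 50.3 ± 14.6, was called without old replicate 1.

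Both inhibitors measured were higher in old kidneys. Timp2, which inhibits metalloproteinases and also takes part with Mmp14 in the activation of Mmp2, had 309, 304, 284 and 382 normalised counts in young and 2185, 1796, 2516, 2179 and 2322 in old kidneys. Its mean rose 6.88-fold, from 320 ± 42.8 to 2200 ± 264 (SD), with a log2 fold change of 2.78 (SE 0.11, limma adjusted p = 5.77e-13), the largest rise of the 65 matrix genes tested. Timp3, which binds to the matrix and inhibits ADAMTS as well as MMP proteases, had 8110, 9374, 9668 and 8821 in young and 15139, 13140, 13053, 13277 and 15893 in old kidneys (0.65, SE 0.11, limma adjusted p = 3.65e-05). No values overlapped for either gene. Because Timp2 rose more, the log2 ratio of Timp3 to Timp2 went from a mean of 4.82 to 2.68. None of the alternatives tried changed the call or direction of either gene.

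The genes that make and fold collagen were measured beside the chains. Of 25 genes listed for collagen processing 23 were tested and 14 called, 6 higher and 8 lower, near the 59.7% of all genes. Serpinh1, the collagen chaperone HSP47 of the endoplasmic reticulum, had 237, 231, 264 and 292 normalised counts in young and 33.0, 66.7, 46.7, 28.9 and 39.3 in old kidneys. Crtap, a subunit of the complex that 3-hydroxylates prolines of type I collagen, had 239, 222, 216 and 215 in young and 15.3, 80.9, 41.6, 27.1 and 31.8 in old kidneys. Neither pair of groups overlapped, and the log2 fold changes were -2.60 (SE 0.20, limma adjusted p = 2.56e-09) and -2.68 (SE 0.30, limma adjusted p = 3.82e-07). The other members of that complex, named after their values were seen, were also lower: P3h1 at -1.23 and Ppib (cyclophilin B) at -1.01. P3h2, which hydroxylates prolines of type IV collagen, was higher instead (198 ± 39.4 and 397 ± 83.9, log2 fold change 1.0), as was the galactosyltransferase Colgalt1 (0.82).

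Receptors that hold cells to the matrix were also called both ways. Of 26 genes listed 21 were tested and 14 called (66.7%, beside 59.7% of all genes), 8 higher and 6 lower. Itga1, an integrin chain that binds collagen, preferring type IV, rose from 561, 437, 521 and 460 to 1075, 886, 896, 1065 and 1045 (log2 fold change 1.01, SE 0.10, limma adjusted p = 1.33e-07), and was at 0.39 with the length trend removed. Itga3, the laminin-binding chain that podocytes need, was higher at 84.2 ± 16.4 and 149 ± 33.3 (0.81). Itgb6, the epithelial chain that activates latent TGF-beta, fell from 527 ± 76.6 to 212 ± 59.2 (-1.34), and Itgb5 was lower at -0.65.

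TGF-beta induces matrix genes in many cells. Of 21 genes listed 17 were tested and 11 called (64.7%, beside 59.7% of all genes), 7 higher and 4 lower. Ccn2, a matricellular protein induced by TGF-beta and by YAP, had 229, 323, 325 and 268 normalised counts in young and 35.4, 29.5, 51.7, 68.1 and 43.5 in old kidneys (log2 fold change -2.67, SE 0.20, limma adjusted p = 2.42e-09). Ltbp4, which holds latent TGF-beta in the matrix, was lower at -0.74. The ligands went the other way. Tgfb1, named after its values were seen, had 27.0, 20.4, 9.80 and 16.3 in young and 50.7, 50.3, 42.6, 63.4 and 99.7 in old kidneys (1.70), and Tgfb2, named likewise, was at 1.45. Skil, a repressor of SMAD proteins, was higher at 1.09 and Smad2, a signal carrier of the pathway, at 1.06.

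**Figure D4:**
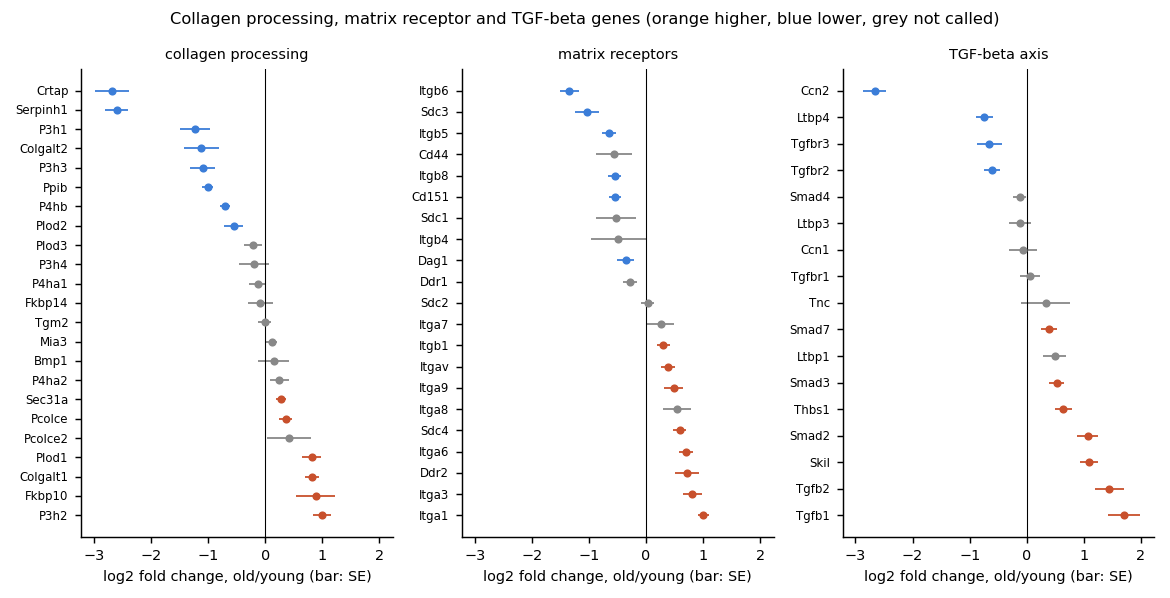
Log2 fold change of old over young kidney (x axis, bars of 1 standard error) for the tested genes of collagen processing, matrix receptors and the TGF-beta axis, in the colours used for the matrix genes. Crtap, Serpinh1 and Ccn2 lie near -2.6 and Tgfb1 lies at 1.70.

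Of 6 smooth muscle and myofibroblast markers all were measured, 5 were tested and 3 were called, each of them higher in old kidneys (60.0%, near the 59.7% of all genes). Their summed level was 367 to 524 normalised counts in young and 776 to 1038 in old kidneys. Tagln carried most of that difference (85.7 ± 18.0 and 393 ± 36.3), while Acta2, the actin of myofibroblasts, was at 221 ± 36.7 and 243 ± 77.6 and was not called. Macrophage markers, 7 of 7 in the table, summed to 529 to 622 in young and 574 to 795 in old kidneys. The part of these cells in the matrix values was not tested. Leaving out old replicate 3 removed the call of Col6a6 and added that of Col14a1, and the other 37 calls remained. Leaving out young replicate 2 removed those of Adamts1, Adamts10 and Col6a6, and the other 35 remained.

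Transcript length moved with fold change over the table and matrix genes are long. The longest annotated transcript of the 65 genes tested had a median of 5784 bases, against 3331 for the 12455 genes tested that could be placed. Over those genes the Spearman correlation of length with log2 fold change was 0.28, and over the 65 matrix genes it was -0.03 (a description, since genes share libraries and depth). In the longest of 5 classes of genes the median of all genes was 0.38, while the 41 matrix genes there had a median of -0.03. With the length trend removed 31 of the 38 calls remained, 7 were lost (Adamts5, Adamts9, Col23a1, Col4a4, Fbn1, Lama1 and Lama2) and 6 were gained (Adamts15, Col27a1, Col4a2, Col4a5, Fn1 and Sparc). The matrix genes then stood at 15 higher and 22 lower, and no call turned round.

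**Figure D5:**
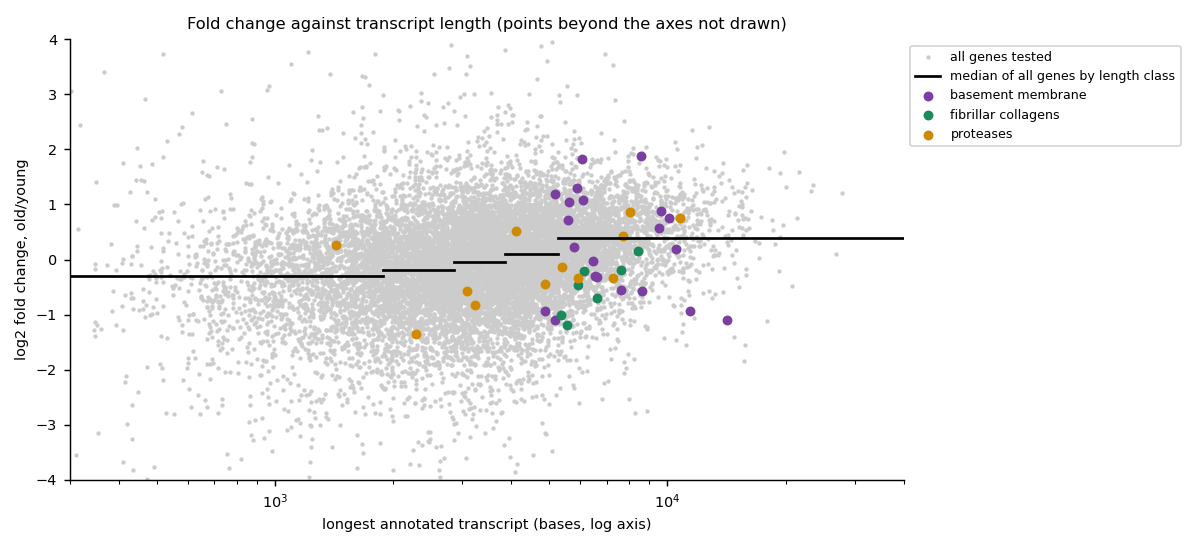
Log2 fold change of old over young kidney (y axis) against the longest annotated transcript in bases (x axis, log scale), with all genes tested in grey and basement membrane, fibrillar collagen and protease genes in colour. The black steps are medians of all genes in 5 length classes and rise from -0.30 in the shortest to 0.38 in the longest class. The coloured genes of that class lie on both sides of its step.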

How the data were processed

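Kidney RNA was reverse transcribed from oligo(dT) with a QuantSeq kit that reads the 3′ end of transcripts, sequenced as stranded single reads, and counted per gene by the authors. Kit versions in the labels and in the study's methods differ. Per the submitters' processing notes, FastQC 0.11.7, TopHat2 2.0.10, Bowtie 1.0.0, SAMtools 0.1.19, HTSeq 0.6.1 and DESeq2 were used on GRCm39. The deposited table holds signal values, here called normalised counts: dividing by 1 factor per library returned whole reads for 100% of them (tolerance 0.001). The lowest mean of a listed gene was 4.49, so sparse genes were not in it. A floor of 3 reads was 2.46 to 3.54 normalised counts per library and covers counting error only, since PCR copies were not told apart by molecular identifiers.

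Groups came from the age in the labels, and replicate numbers follow the order of listing. Old and young libraries were compared with limma 3.58.1 (lmFit, eBayes with trend, R 4.3.3) on log2(normalised count + 1), with no covariate and Benjamini-Hochberg adjustment over the 12667 genes with 10 or more normalised counts in 4 or more libraries. Fold changes are on that log2 scale, which understates those of low genes. The script was tested on simulated data. Ratios were tested by exact two-sided permutation in Python 3.11.15 with scipy 1.17.1. Alternatives were pseudocounts of 0.1 and 5, no filter, a mean of at least 100, recovered reads in edgeR 4.0.16 or in DESeq2 1.42.0, scaling by TMM factors, by the table total or without mitochondrial genes, a length trend removed (lowess, span 0.3), and each library left out in turn.

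The members and gene lists were chosen with earlier results of these data known. Named were tested chains of collagens I, III, IV and V, TIMPs, Fn1, Sparc, Dcn, Lum and Bgn whatever their result, the genes of the ratios, and the 2 largest called rises and falls of each group or pathway list among genes with a mean of at least 50. Every other member named was chosen after its values were seen, to account for the rest of its group. Gene positions are from GENCODE vM21 on GRCm38, not the build used for counting. Promoter sequences and motif counts are from RefSeq (GRCm38.p6). Annotated exons were cut away from the printed stretches but not from the promoters over which motif shares were counted. The values of 1 basement membrane gene are not reported here, though it is included in the counts.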

Additional observations from a re-analysis of the deposited data

Results flagged for a closer look

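Among 86 groups of libraries examined for 1 library far from the rest, 6 had one, where 1 in 20 groups (4.3) is what chance gives. The measure is the gap to the nearest library divided by the whole range of the group, both taken on log2(normalised count + 1). Values printed beside the gaps are normalised counts, so the gaps do not follow from them directly. Young replicate 3 was highest for Col5a2 (85.3 normalised counts, others 77.7 to 78.8, gap 0.859 of the range) and lowest for Lamb2 (109, others 124 to 127, gap 0.858). Young replicate 4 was lowest for Lamb1 (221, others 266 to 273, gap 0.887). Old replicate 1 was lowest for Col5a3 (4.71, others 17.0 to 23.3, gap 0.791) and highest for Skil (154, others 101 to 110, gap 0.794). Old replicate 3 was highest for Itga3 (207, others 124 to 142, gap 0.734). The calls of Col5a2, Lamb2, Itga3 and Skil remained without the library named for each, and Lamb1 and Col5a3 were not called with or without it.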

How the results depend on the processing

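No paired analysis was possible because the titles carry no replicate number that the age groups share. Of the 43 genes named by rule, 27 kept both direction and side of the threshold under every alternative. Requiring a mean of at least 100 lowered the genes called from 7568 to 4101, the matrix genes called from 38 to 18 (10 higher, 8 lower), the basement membrane genes to 9 and the proteases to 2, and turned the protease median from -0.23 to 0.15, since fewer genes were then tested. Removing the length trend turned the basement membrane median to -0.058, with Lamb1 at -0.058 and Col5a1 at -0.33. With mitochondrial genes left out, Col4a2 was at 0.11, Dcn at 0.11 and Col6a1 at 0.13. Dcn was at 0.0484 with DESeq2 and 0.0479 with edgeR. Leaving out 1 library gave 18 to 24 matrix genes higher and 14 to 17 lower, a protease median of -0.34 to -0.0154 (highest without old replicate 4), and log2 fold changes of -0.0715 to 0.00609 for Col4a2, -0.38 to 0.19 for Col5a3, -0.24 to 0.12 for Dcn, -0.16 to 0.24 for Col6a1 and -0.023 to 0.51 for Col6a2, none of them called, and the cause was not tested. edgeR called 7649 and DESeq2 7532 genes, with 38 and 37 matrix genes. At this depth, matrix genes under about 20 normalised counts had standard errors of 0.34 to 0.50 on the log2 scale.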
